A study of Mus musculus with 2 samples.

Results

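Mir143, Mir145a and Mir145b, 3 of the 2202 microRNA (miRNA) genes counted, were examined in gastrocnemius, the large muscle of the calf. They were chosen by their gene symbols in GENCODE M21, with no measured value in the rule, though earlier results of these data were known. Both libraries come from adult female B6CASTF1/J mice, an F1 hybrid strain, at 18 to 20 months of age, with no treatment named in the labels. The labels number them as biological replicates 1 and 2 of 1 group, with separate tissue entries but a single donor entry. Whether 2 animals were sampled is therefore not settled, and every difference between the libraries may be technical.

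A miRNA is cut from a hairpin precursor to a short strand that guides a silencing complex to messenger RNAs, mainly through the seed, the bases near its 5′ end. Mir143 and Mir145a are textbook miRNAs of smooth muscle. They are transcribed together under serum response factor and its partner myocardin, and they act on regulators such as Klf4, Klf5 and Elk1 to favour the contractile state of vessel walls. Skeletal muscle fibres are served by arterioles, whose smooth muscle is the best known source of this pair in such tissue, while pericytes and fibroblasts can hold it too. In a bulk sample, fewer cells of a type and less RNA per cell cannot be told apart.

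The comparisons below set these genes beside miRNAs of the endothelium that lines the same vessels and beside miRNAs that act on smooth muscle growth. Mature sequences of those comparison genes are shown from RefSeq (GRCm38.p6), 5′ to 3′ with the seed (bases 2 to 8) in capitals. Of 42 genes in the lists used here, 36 matched that table. The count files do not say which arm of a hairpin the reads came from. Mir126a is the endothelial reference, Mir221 and Mir222 share 1 seed and favour smooth muscle growth, Mir21a acts in the vessel wall, and Mir26a and Mir26b share 1 seed.
mmu-miR-126a-3p: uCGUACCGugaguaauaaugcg
mmu-miR-221-3p: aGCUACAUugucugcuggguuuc
mmu-miR-222-3p: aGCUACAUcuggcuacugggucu
mmu-miR-21a-5p: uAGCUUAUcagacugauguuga
mmu-miR-26a-5p: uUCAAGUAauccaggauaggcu
mmu-miR-26b-5p: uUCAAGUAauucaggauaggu

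The libraries held 6888732 and 12001270 reads, and miRNA genes received 865419 and 2177048 of them in sense. Levels are given as CPM, the sense counts of a gene per 1000000 sense counts over all miRNA genes of the library. Reads that map to several places enter no gene and made up 80.7% of reads in replicate 1 and 71.0% in replicate 2. Errors written with ± are SD over both libraries (n = 2). Intervals are 95% intervals and, like the tests, cover counting error only. No molecular identifiers were counted, so reads can be copies of 1 molecule and true errors are wider.

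The annotation places 2 of the genes together and the other one far away. Mir143 (ENSMUSG00000065445.3) lies on mm10 chromosome 18 from 61649196 to 61649258, minus strand, in a hairpin of 63 bases. Mir145a (ENSMUSG00000065592.2) follows it on the same strand at 61647825 to 61647894, after a gap of 1301 bases. Mir145b (ENSMUSG00000098366.1) lies at 69022199 to 69022273, 7.37 Mb from Mir143, so it does not belong to their cluster. No other annotated gene overlaps any of the hairpins. The long noncoding RNA Carmn, which is known from cardiovascular smooth muscle, is annotated upstream on the same strand (61649625 to 61665537) and stops 366 bases short of Mir143. On the other strand, the heart-lineage RNA Bvht ends 352 bases before the position of Mir145a.

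By counted reads, Mir143 was among the highest miRNA genes of the muscle, Mir145a was about an order of magnitude below it, and Mir145b was at the detection limit. Levels and ranks leave out the multimapping reads. Genes with nearly identical copies, such as Mir1a-1 at 22 and 48 counts, may therefore rank too low beside Mir143. Mir143 had 58459 counts in replicate 1 and 76508 in replicate 2. These correspond to 67550 and 35143 CPM, a mean of 51346 ± 22915. It ranked as gene 2 in replicate 1, gene 11 in replicate 2 and gene 6 by mean CPM. Replicate 2 thus held more reads of Mir143 but a smaller share of its library, 3.51% (exact Clopper-Pearson interval 3.49 to 3.54) against 6.75% (6.70 to 6.81).

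Mir145a had 6797 counts in replicate 1 and 6188 in replicate 2, so its raw count was lower in the deeper library. Its level was 7854 CPM in replicate 1 and 2842 CPM in replicate 2, a mean of 5348 ± 3544. It ranked as gene 26, gene 38 and, by mean CPM, gene 30. Its share of gene counts was 0.785% (exact Clopper-Pearson interval 0.767 to 0.804) in replicate 1 and 0.284% (0.277 to 0.291) in replicate 2.

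Mir145b had 1 count in replicate 1 and 2 counts in replicate 2. That is 1.16 CPM (exact Poisson interval 0.0293 to 6.44) and 0.919 CPM (0.111 to 3.32), under the 3.47 and 1.38 CPM that 3 counts would give. Its mean of under 10 counts left it out of the comparison between the libraries. Summed, the 3 genes held 7.54% of gene counts (exact Clopper-Pearson interval 7.48 to 7.6) in replicate 1 and 3.80% (3.77 to 3.82) in replicate 2, nearly all of it from Mir143. Mir145a exceeded Mir145b by 6797 to 1 in replicate 1 (exact interval 1220 to 268506) and 3094 to 1 in replicate 2 (856 to 25554). The longest stretch that the Mir145a and Mir145b hairpins share is 17 bases, the longest that either shares with any of the 2202 hairpins. Mir143 shares at most 11 bases with any other hairpin, 5 with Mir145a and 6 with Mir145b. Whether reads of the Mir145 genes entered the multimapping tally was not tested. None of the 3 genes had a read on the antisense strand in either library, and their unstranded counts equal the sense counts.

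**Figure D1:**
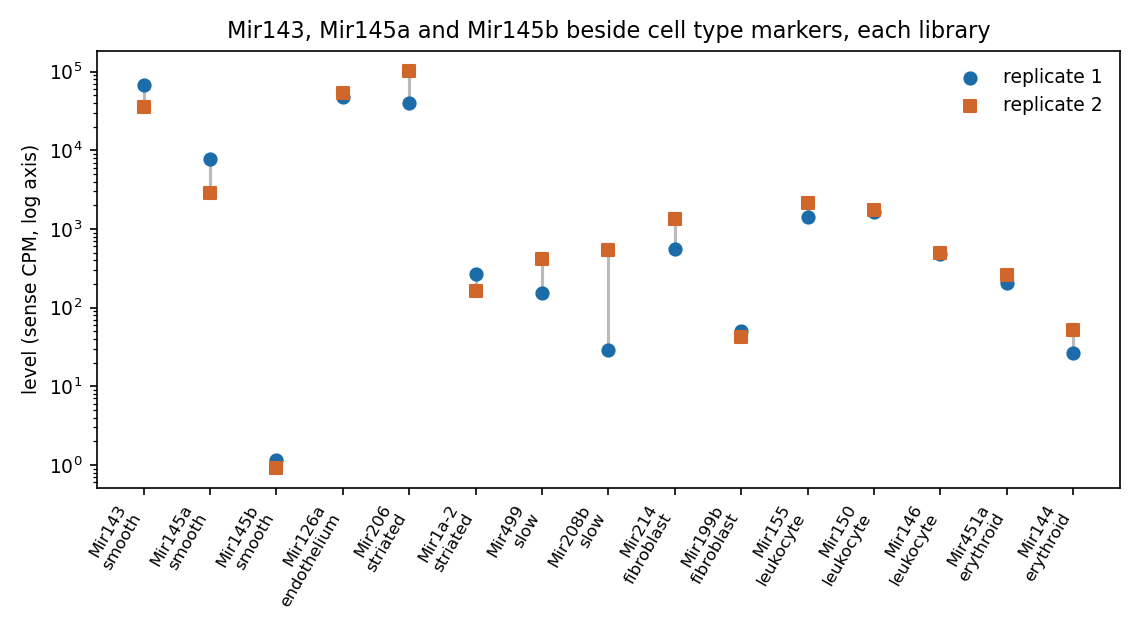
Level of the 3 genes and of 12 marker miRNAs in each library, in sense CPM on a log axis; circles are replicate 1, squares replicate 2, and a grey line joins both values of a gene. Mir143 lies between 35143 and 67550 CPM, in the range of endothelial Mir126a and muscle Mir206, while Mir145b lies near 1 CPM.

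The order of Mir143 among its neighbours was not the same in both libraries. By mean CPM, the 3 genes above it were Mir22, Mirlet7i and Mirlet7g, and the 3 below it were Mir126a, Mir23a and Mir23b. Mirlet7i stood at 57323 and 52072 CPM, and Mirlet7g stood at 55843 and 53355 CPM. Both lay below Mir143 in replicate 1 and above it in replicate 2. Mir23a, at 40042 and 40739 CPM, was likewise below Mir143 in replicate 1 and above it in replicate 2. In all, 12 genes had a range over the libraries that overlaps that of Mir143, with ranks by mean CPM between 2 and 14, and 1 gene, Mir378a, lay wholly above it. Its place among them is therefore not resolved by these libraries.

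Mir145a stood between Mir27b and Mir196a-2 by mean CPM. Mir27b had 7351 and 7050 CPM, within the range of Mir145a, and Mir196a-2 had 4411 and 3976 CPM, also within it. The other genes within 3 ranks, Mirlet7f-2, Mir125a, Mirlet7e and Mir28a, overlapped that range too. Ranges of 18 genes overlapped that of Mir145a, with ranks from 19 to 42, and 22 genes lay wholly above it. The ranges of Mir143 and Mir145a did not overlap each other.

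Within a library, the ratio of Mir143 to Mir145a needs no library total. It was 8.60 to 1 in replicate 1 (exact interval 8.39 to 8.82) and 12.4 to 1 in replicate 2 (12.0 to 12.7), a mean of 10.5 ± 2.66. Per base of hairpin the ratios were 9.56 and 13.7. Mir145a made up 10.4% (10.2 to 10.7) of the summed counts of the 3 genes in replicate 1 and 7.48% (7.30 to 7.66) in replicate 2. The ratio was 1.44-fold higher in replicate 2 (Woolf interval 1.39 to 1.49), a log2 difference of 0.52, with an adjusted p of 1.65e-86 by the two-sided exact test of Fisher over 7 comparisons. This test compares the reads of these libraries and says nothing of animals.

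Both genes of the pair took a larger share of replicate 1, and Mir145a differed more than Mir143. The split of a gene's counts over the libraries was set against the split of the totals with the exact binomial test (two-sided), for genes averaging 10 counts or more. A gene was called where its p, adjusted by Benjamini-Hochberg, was under 0.05 and its ratio reached 2. Mir145a was 2.76-fold higher in replicate 1 (interval 2.67 to 2.86) and was called, with an adjusted p under 1e-300 by this exact test. Mir143 was 1.92-fold higher in replicate 1 (1.90 to 1.94), with an adjusted p also under 1e-300 by the exact test, and missed the ratio threshold. So 1 of the 2 tested genes was called, beside 33.8% of all 305 tested genes in either direction and 6.89% called higher in replicate 1.

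These ratios stood low among all genes. The log2 ratio, replicate 2 over replicate 1, was -0.94 for Mir143 and -1.47 for Mir145a, against a median of 0.43 over the tested genes. The log2 ratios had an SD of 1.255 over these genes, which puts Mir143 at -1.10 SD from the median and Mir145a at -1.51 SD. Of the 305 tested genes, 23 had a lower log2 ratio than Mir143 and 11 a lower one than Mir145a. Among the 30 genes with the highest mean CPM, Mir145a was in place 3 and Mir143 in place 5 from the lowest ratio. In that set 4 genes were called higher in replicate 1, Mir10b, Mir21a, Mir145a and Mir26b, and 4 higher in replicate 2.

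The call depended on the scaling. TMM lowers every log2 ratio by 0.28 (a shift of -0.28) and DESeq2 size factors by 0.42 (-0.42), while taking all reads as the total raises it by 0.53. Mir143 was then 2.34-fold and 2.57-fold higher in replicate 1 with TMM and DESeq2 size factors, and called by both, but 1.33-fold higher with all reads as the total. Mir145a was 3.36-fold and 3.69-fold higher with TMM and DESeq2 size factors, and 1.91-fold higher with all reads, where its call ended. The share of tested genes called higher in replicate 1 was 10.5% with TMM, 12.8% with DESeq2 size factors and 2.95% with all reads. Of the called genes, those higher in replicate 1 numbered 21 of 103 with library totals, 32 of 98 with TMM, 39 of 97 with DESeq2 size factors and 9 of 147 with all reads. Under each of these 4 scalings both genes kept a larger share in replicate 1.

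**Figure D2:**
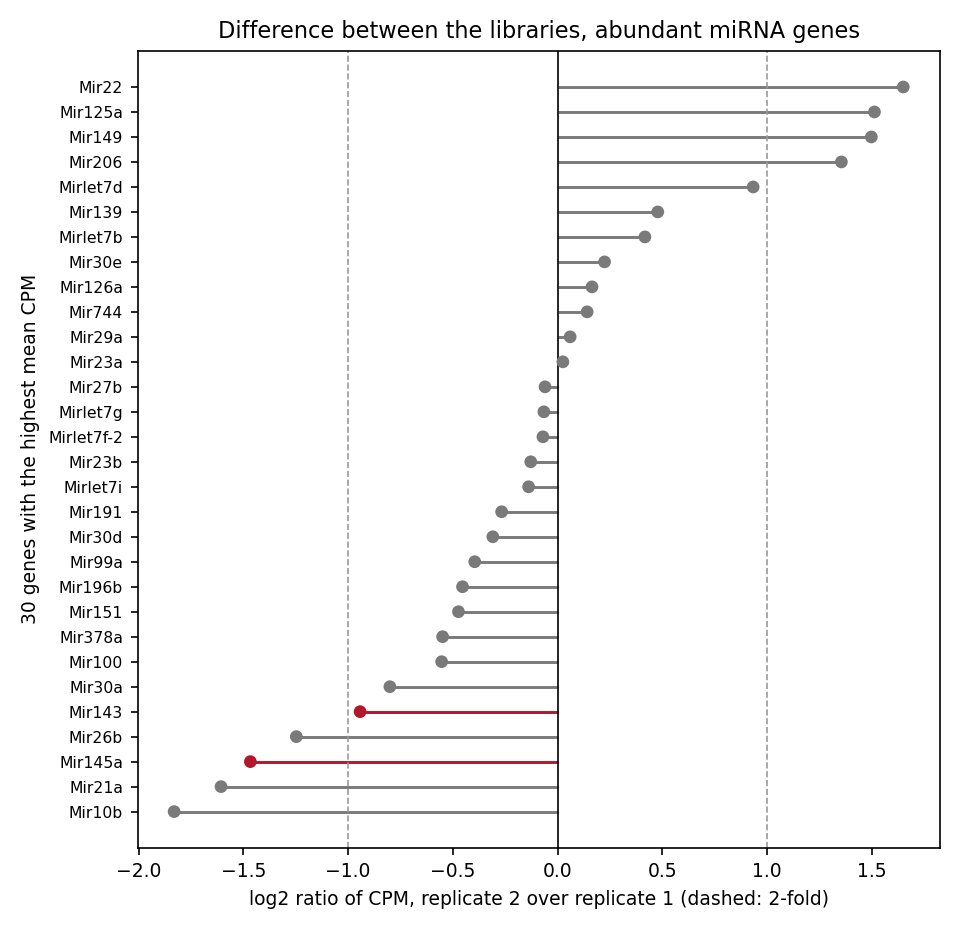
Log2 ratio of CPM, replicate 2 over replicate 1, for the 30 genes with the highest mean CPM, ordered by ratio; dashed lines mark a 2-fold difference and red marks Mir143 and Mir145a. Mir145a at -1.47 lies past the line toward replicate 1 and Mir143 at -0.94 just inside it.

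With library totals, the endothelial reference did not have a larger share in replicate 1. Mir126a, which lies in an intron of the endothelial gene Egfl7 and supports vessel integrity, had 47279 and 52968 CPM in replicates 1 and 2. Its log2 ratio was 0.16, and it was not called. That direction holds with library totals and all reads (0.69) but turns with TMM (-0.12) and DESeq2 size factors (-0.25). Mir126b, the other gene of the endothelial list, had 0 counts in both libraries. For each count of Mir126a, the 3 genes together gave 1.59 counts in replicate 1 (exact interval 1.58 to 1.61) and 0.717 in replicate 2 (0.711 to 0.724). They exceeded Mir126a in replicate 1 and fell short of it in replicate 2. The ratio was 2.22-fold higher in replicate 1 (Woolf interval 2.19 to 2.26), with an adjusted p under 1e-300 by the exact test of Fisher. No library total enters this comparison. The median log2 ratio over all tested genes was 0.43, above that of Mir126a. A gene at that median would give a larger difference than Mir126a does, so the difference is not particular to the endothelial reference.

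Against the summed counts of each other marker list the 3 genes also stood higher in replicate 1, though not against each marker gene. Their summed counts were 1.85 times those of the striated muscle list in replicate 1 and 0.367 times in replicate 2. Mir206 of muscle fibres, at 40389 and 103232 CPM, made up 99.1% and 99.7% of that list. Most reads of Mir1a and Mir133a may stand in the multimapping tally. The list total is thus in effect that of Mir206, and the ratio does not compare the cell types in amount. Against the leukocyte list the ratio was 17.0 and 7.71, a 2.20-fold difference (2.12 to 2.29). Mir150 of lymphocytes and Mir155 of activated immune cells made up 37.4% and 32.2% of that list in replicate 1 and 35.4% and 43.0% in replicate 2. Against the erythroid list, Mir451a and Mir144 of red blood cells, it was 328 and 120, a 2.72-fold difference (2.33 to 3.19). Against the fibroblast list it was 119 and 27.5, where Mir214 made up 89.1% and 96.5% of the list, and against the slow fibre list 416 and 39.7. Taken singly, 17 of the 20 tested marker genes gave a higher ratio in replicate 1 and 3 gave a higher one in replicate 2. Most genes would give the former, because the summed share of the 3 genes was smaller in replicate 2. Of all 305 tested genes, 23 had a lower log2 ratio than Mir143 and 11 a lower one than Mir145a. The markers with a higher ratio in replicate 2 included Mir142 of blood cells, at 306 and 396, and Mir223 of myeloid cells, at 271 and 310. The last was Mir199a-2, at 5020 and 6361, which had 13 counts in both libraries. Reads that fit both Mir199a copies enter neither count. The Woolf interval of the difference excluded equal ratios for Mir142, and included them for Mir223 and Mir199a-2. All 7 comparisons of this family, that of Mir143 with Mir145a included, had an adjusted p under 0.05 by the exact test of Fisher, the largest at 6.24e-41. They share the counts of the 3 genes and are not independent. For Mir126a and the lists, the direction was the one that most tested genes would give.

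**Figure D3:**
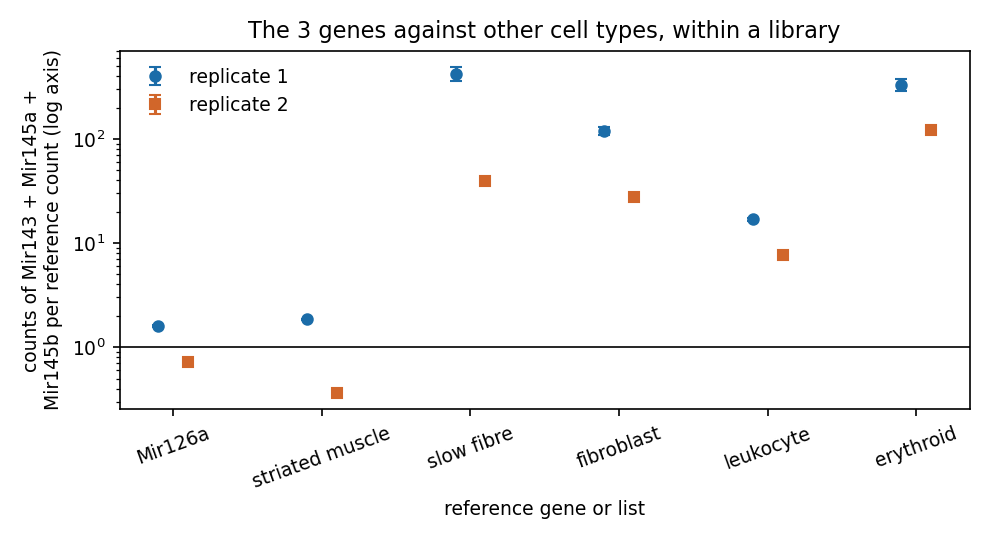
Summed counts of Mir143, Mir145a and Mir145b per count of a reference gene or list in each library, on a log axis, with exact 95% intervals; the line marks equal counts. Every ratio is higher in replicate 1, as it would be for most tested genes. In replicate 1 the ratios run from 1.59 for Mir126a to 416 for the slow fibre list. In replicate 2 they run from 0.367 for the striated muscle list, nearly all Mir206, to 120 for the erythroid list.

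Markers of other cell types moved between the libraries as well, and their part in the difference was not tested. Markers of striated muscle took 4.07% and 10.4% of gene counts in replicates 1 and 2, nearly all of it from Mir206. Of 6 tested genes, 2 were called higher in replicate 2, Mir206 and Mir208a, beside 26.9% of all tested genes called in that direction, so this count is near the background. The call of Mir208a rests on 1 count in replicate 1 and 74 in replicate 2. None of the 7 genes was at 0. The call of Mir206 ended with DESeq2 size factors, while Mir1a-2 was called toward replicate 1 with TMM (log2 -1.02) and DESeq2 size factors (-1.16). With all reads as the total, Mir133a-1 was called toward replicate 2 (1.12). Mir1a and Mir133a each have 2 nearly identical copies, so most of their reads may stand in the multimapping tally. The slow fibre list held 0.0181% and 0.0956%, with both genes called higher in replicate 2. The fibroblast list held 0.0633% and 0.138%. There Mir214, which is known from fibroblasts, was called higher in replicate 2 at 564 and 1335 CPM, though not with TMM or DESeq2 size factors. Mir199a-2, with 13 counts in both, was called higher in replicate 1, though not with all reads as the total, and Mir199a-1 had 3 counts and 0. Reads that fit both of these copies enter neither count, so their levels are lower bounds. The leukocyte list held 0.444% and 0.493%, with 4 of 6 genes not called. Mir142 and Mir223 were called higher in replicate 1, though not with all reads as the total. Of all tested genes, 6.89% were called in that direction with library totals. Mir155 was called toward replicate 2 with all reads as the total (log2 1.10). The erythroid list held 0.0230% and 0.0316%, with neither gene called, except Mir144 toward replicate 2 with all reads as the total (log2 1.51).

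Other miRNAs known to act on the contractile or growing state of vascular smooth muscle had calls in both directions with library totals. Of 19 such genes, 18 were tested: 3 had a call toward replicate 1, 3 toward replicate 2 and 12 had none. The 6 called genes stand beside 33.8% of all tested genes. Their median log2 ratio over the 18 genes was 0.05, beside 0.43 over all tested genes. The calls toward replicate 1 and toward replicate 2 numbered 4 and 0 under TMM. DESeq2 size factors gave 5 and 0, and all reads as the total gave 2 and 6. Over all 305 tested genes, the same calls numbered 21 and 82 with library totals and 32 and 66 with TMM. They numbered 39 and 58 with DESeq2 size factors and 9 and 138 with all reads as the total. Mir21a, which favours smooth muscle growth and is widely expressed in fibrotic tissue, had 15929 and 5232 CPM and was 3.04-fold higher in replicate 1 (2.97 to 3.12). Mir26a-1 and Mir26a-2, copies with the seed printed above, were the other genes called higher in replicate 1. Mir26a-2 stood at 318 and 111 CPM. Mir26a-1 had 259 counts in replicate 1 and 13 in replicate 2. Reads that fit both copies enter neither count, which holds for the copies of Mir24 and Mir29b too, so these levels are lower bounds.

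Mir222, Mir24-2 and Mir29b-1 were the genes of this list called higher in replicate 2 with library totals, and none of them was called with TMM or DESeq2 size factors. Mir222, which lowers the cell cycle inhibitor p27 in growing smooth muscle, stood at 71.6 and 173 CPM. Its neighbour Mir221, with the same seed, stood at 660 and 852 CPM and was not called. Mir29a, which acts on collagen mRNAs, had the highest mean CPM of the list, though Mir21a stood above it in replicate 1. It had 14193 and 14792 CPM and was not called. Mir195a, at 1418 and 1374 CPM, and Mir322, at 2962 and 3025 CPM, both of a family that restrains the cell cycle, were not called either. Counts of Mir133a-2, at 2 and 11, were too few for the test.

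Few abundant genes had a ratio between the libraries close to that of the pair. Over the 54 other genes with a mean of at least 1000 CPM, likeness was taken as the smallest gap in log2 ratio, which rests on 2 libraries only and is a description. The 4 genes nearest to Mir143 were Mir29c, Mir361, Mir30a and Mir26b, with gaps of 0.10, 0.11, 0.14 and 0.30. Mir30a, for example, stood at 35938 and 20632 CPM. The 4 genes nearest to Mir145a were Mir21a, Mir26b, Mir10b and Mir140, with gaps of 0.14, 0.22, 0.36 and 0.43. Mir26b, at 40813 and 17195 CPM, is on both lists. Among these 56 genes, Mir145a was in place 4 and Mir143 in place 6 from the lowest ratio.

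The disagreement of Mir143 with Mir145a was not large for neighbouring miRNA genes. On 1 strand, 52 pairs of genes have starts within 10 kb and a mean of at least 100 counts each. The members of a pair often share a transcript, and pairs that share a gene are not independent. The 2 log2 ratios of a pair differed by a median of 0.73, from 0.03 for Mir181d and Mir181c to 3.03 for Mir379 and Mir299a. The difference of 0.52 for Mir143 and Mir145a was smaller than in 33 pairs and larger than in 18. In levels, the pair differed by a mean log2 of 3.37, and 14 of the 52 pairs differed by more. Mir23b to Mir27b, for comparison, was 5.41 to 1 in replicate 1 and 5.16 to 1 in replicate 2, and Mir29a to Mir29b-1 was 372 and 181 to 1.

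With library totals, few pairs shared the direction of Mir143 and Mir145a. In 28 pairs both genes had the larger share in replicate 2, in 5 pairs both had it in replicate 1, and in 19 pairs the genes went opposite ways. With TMM these counts were 21, 11 and 20, with DESeq2 size factors 17, 14 and 21, and with all reads as the total 45, 2 and 5. The 5 pairs, named after their values were seen, were Mir143 with Mir145a, Mir17 with Mir20a, Mir23b with Mir27b, Mirlet7f-2 with Mir98, and Mir30d with Mir30b. With library totals, Mir143 and Mir145a were the 1 pair with both log2 ratios under -0.9, a limit chosen after the values were seen. Mir17 and Mir20a followed at -0.61 and -0.80. This depends on the scaling, because DESeq2 size factors take Mir17 and Mir20a under that limit too. With all reads as the total, Mir143 itself was at -0.41.

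**Figure D4:**
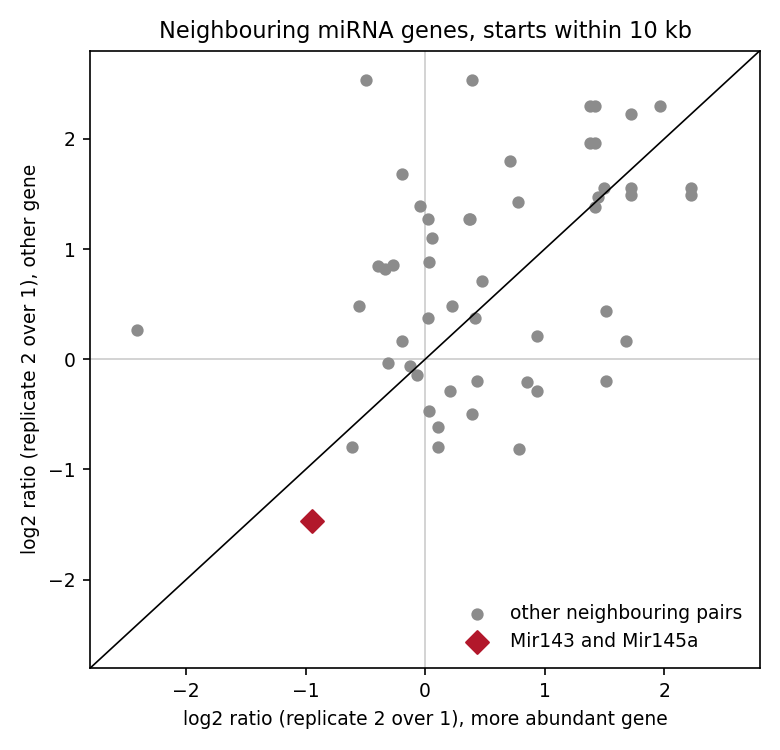
Log2 ratio between the libraries, replicate 2 over replicate 1, of the more abundant gene (x axis) and of the other gene (y axis) in 52 pairs of neighbouring miRNA genes; the diagonal marks equal ratios and the red diamond is Mir143 with Mir145a. The diamond, at -0.94 and -1.47, lies lower left of the other pairs in which both genes are below 0.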

How the data were processed

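Short RNA libraries of gastrocnemius (2 libraries, 1 group) were analysed from the deposited counts of reads per miRNA gene, which the authors left without normalization. Per the deposited README files, counts refer to mm10 and GENCODE M21; as for the aligner, counting tool and trimming, the sources used here do not give them. Each file has 4 tallies of reads given to no gene (87.4% and 81.9% of reads), kept out of totals and tests, and 3 count columns without header, of which the second, taken as sense because it sums highest over genes, was used.

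Symbols, positions and hairpins came from GENCODE M21, and all 2202 identifiers matched. The 305 genes that averaged 10 counts or more were compared between the libraries with the exact binomial test, conditional on the summed count, and p-values were adjusted by Benjamini-Hochberg. Ratios within a library were compared by the exact test of Fisher, adjusted over 7 comparisons, with Woolf intervals. Alternatives were TMM (edgeR 4.0.16), DESeq2 1.42.0 size factors, other totals, the unstranded column and other filters. Software was Python 3.11.15, SciPy 1.17.1, pandas 2.3.3 and R 4.3.3.

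Named were the 3 genes, genes of the marker and smooth muscle lists, 3 rank neighbours on each side, the 4 genes most like Mir143 and Mir145a, chromosome neighbours, and pairs of neighbouring genes. The 3 genes, the lists and the tests were chosen with earlier results of these data known. Older symbols stand for Mir142a (Mir142) and Mir146a (Mir146).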

Additional observations from a re-analysis of the deposited data

How the results depend on the processing

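Mir143 and Mir145a had the larger share in replicate 1 under the 5 scalings, the 3 count filters and both columns tried. The log2 ratio of Mir143 passed the 2-fold threshold with TMM (-1.23), DESeq2 size factors (-1.36), totals without Mir378a (-1.04) and the unstranded column (-1.03). That of Mir145a missed it with all reads as the total (-0.94). The genes called between the libraries numbered 50 among genes averaging 100 counts or more and 207 with no ratio threshold, against 103. The 3 genes held 5.67% ± 2.65 of gene counts and 0.818% ± 0.183 of all reads. Leaving out a library gave 3.80% to 7.54% of gene counts, 35143 to 67550 CPM for Mir143, 2842 to 7854 CPM for Mir145a and 0.919 to 1.16 CPM for Mir145b. In the unstranded column Mir145b stood at 1.36 CPM, because that column has fewer gene counts. The median difference of neighbouring pairs was 0.98 with starts within 50 kb; within 1 kb Mir143 and Mir145a are no pair. The 3 genes could not be set against Mir126a in the unstranded column, where Mir126a has almost no counts. No paired analysis was possible because the series has 1 group. Depth limits Mir145b, at 1 and 2 counts, and not Mir143 or Mir145a, whose counting intervals are far narrower than the gap between the libraries.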

Other observations

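Chromosome 18 carries 57 of the annotated miRNA genes, of which 15 had any count, and it supplied 25.7% of gene counts in replicate 1 and 16.2% in replicate 2. Mir143, Mir145a and Mir145b held 29.3% and 23.4% of the counts of that chromosome. Within 500 kb of the cluster lie 2 other miRNA genes. Mir378a, the gene with the most counts in the muscle, lies 250 kb away at 61397835 to 61397900 on the same strand, with 181375 CPM in replicate 1 and 123976 CPM in replicate 2. Mir143 reached 0.372 counts per count of Mir378a in replicate 1 and 0.283 in replicate 2. Gm25301, on the strand opposite Mir378a, had 0 counts in both libraries, which allows up to 3.47 and 1.38 CPM. Of the 5 most abundant genes of the chromosome, the others were Mir1a-2 of striated muscle, at 270 and 162 CPM, and Mir187, at 34.7 and 139 CPM.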
